A study of Oryctolagus cuniculus with 4 samples.

Results

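Ion channel genes encode the pores and accessory subunits that let potassium, calcium, sodium and chloride cross cell membranes. In the bladder they set the excitability of smooth muscle, the tone of blood vessels, the transport of salt across the urothelium and the signalling of nerves, glia and stroma to stretch and irritants. Pore subunits work together with smaller partners: beta and alpha-2-delta subunits shape calcium channels, KCNMB proteins tune the large-conductance calcium-activated potassium channel, and sulfonylurea receptors complete the ATP-sensitive potassium channel. All genes of the deposited single-cell tables whose symbol belongs to the potassium (KCN), calcium (CACN), sodium (SCN), TRP, Piezo, acid-sensing (ASIC), anoctamin (ANO), CLC chloride (CLCN) and HCN families were selected, which gave 117 of 18475 genes. The symbols decided this, not the counts. TRPC4AP is caught by its symbol but encodes a protein that binds TRP channels and is no channel itself.

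Bladder mucosa came from 4 adult New Zealand rabbits, with 1 library of droplet-based 3′ sequencing per rabbit. The 2 normal rabbits (Normal_1, Normal_2) were sampled under homeostasis. The 2 injured rabbits (Injury_1, Injury_2) were sampled on day 10 after resection of a patch of mucosa, at the stage when new urothelium had just closed over the wound. The labels name no transgene or drug and say nothing else of the animals. With 2 rabbits per group, an exact permutation test of a single value cannot go below p = 0.333.

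After filtering, 21945 cells remained, between 4308 in Normal_1 and 6081 in Injury_1, with 24798544 to 44542420 UMIs (unique molecular identifiers, each counting 1 captured RNA molecule) per library. Normal_1 was the shallowest, with a median of 4813.5 UMIs per cell against 6755 to 7186 in the others. The label of the tissue is urothelium, yet epithelial-like cells made up 2.85% to 10.2% of the kept cells of a library, and most of the rest were fibroblast-like and endothelial-like. Clustering gave 28 clusters, of which those with the markers of 1 class were joined into classes. Of the 28, 5 clusters with 929 cells in all (of few UMIs, with leading genes of another class, with high doublet scores or led by proliferation genes) were left unnamed and are in no class, and their channel UMIs count only in totals over all cells. A cluster of 1937 cells led by HHIP, PTPRQ, ADAM23 and WIF1 had raised markers of both fibroblasts and smooth muscle and is called HHIP-led cells. The level of a gene in a class is its CPM in each library, that is its UMIs divided by all UMIs of the class in that library and multiplied by 1000000, for libraries with at least 20 cells of the class. A 3′ library counts a transcript once whatever its length, so no level was scaled to length. Levels are compared between cells, and where genes are ranked, the order is one of counted UMIs only. The classes were made by clustering the same cells, with the channel genes left out of the genes used, so levels between classes are a description without a test. Of 21894 barcodes, 51 occurred in more than 1 library.

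The channel genes together held 85223 UMIs. Of the 117 genes, 57 had at least 50 UMIs and are called measured, 47 had 1 to 49 UMIs and 13 had none. A few genes held most of the molecules. TRPV2 had 24396 UMIs (28.6% of all), TRPM7 16314 (19.1%), ANO6 7166 (8.41%) and CLCN3 5301 (6.22%), and these 4 came to 62.4%. The measured genes were spread over 8 of 14 TRP channels, 8 of 27 voltage-gated potassium channels, 7 of 11 potassium channel subunits or binding proteins, 6 of 10 calcium channel subunits, 5 of 8 voltage-gated sodium channels, all 4 CLC genes, and 3 of 4 anoctamins. Among the acid-sensing channels only ASIC1 of 5 was measured, and among the inward rectifiers only KCNJ2 and KCNJ8 of 9. SCNN1A (43 UMIs) and SCNN1G (30 UMIs), partners of SCNN1B in the epithelial sodium channel, fell under the limit, as did KCNA5 (34 UMIs) and KCNK2 (38 UMIs). Of the 57 measured genes, 56 had UMIs in all 4 libraries.

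The summed level of the channel genes was highest in the small glial class, at 4813 ± 1622 CPM (SD, n = 3), of which SCN7A alone made up 4165 ± 1570 CPM. Smooth muscle followed with 1162 ± 178 CPM, pericytes with 866 ± 85.8 CPM and HHIP-led cells with 724 ± 139 CPM (n = 4 each). Fibroblasts, T cells, endothelial cells, epithelial cells and macrophages had means between 415 and 527 CPM. From smooth muscle down to macrophages, the ranges of neighbours in this order overlapped. Neutrophils had the lowest mean, 321 ± 49.5 CPM. By gene, among the classes with a mean, smooth muscle, HHIP-led cells and glia were each the highest class of 9 measured genes and pericytes of 8. Fibroblasts were the highest of 5, epithelium and T cells of 4, and endothelium, macrophages and neutrophils of 3. Lymphatic endothelium, B cells and mast cells had no mean and were left out of this ranking. The range over libraries in the highest class was clear of the range in the next class for 7 of the 9 genes of smooth muscle (124 of all 1036 genes with at least 50 UMIs that were highest there), 5 of the 8 of pericytes (10.7% of 572) and 3 of 9 in HHIP-led cells (11.7% of 832). It was clear for 3 of 9 in glia (15.2% of 2252), for 1 gene each in T cells (16.8% of 1076), endothelium (26.3% of 911), macrophages (16.4% of 611) and neutrophils (15.8% of 524), and for none in epithelium (25.6% of 1666) and fibroblasts (12.2% of 485). These shares are a description of 4 libraries and were not tested.

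**Figure D1:**
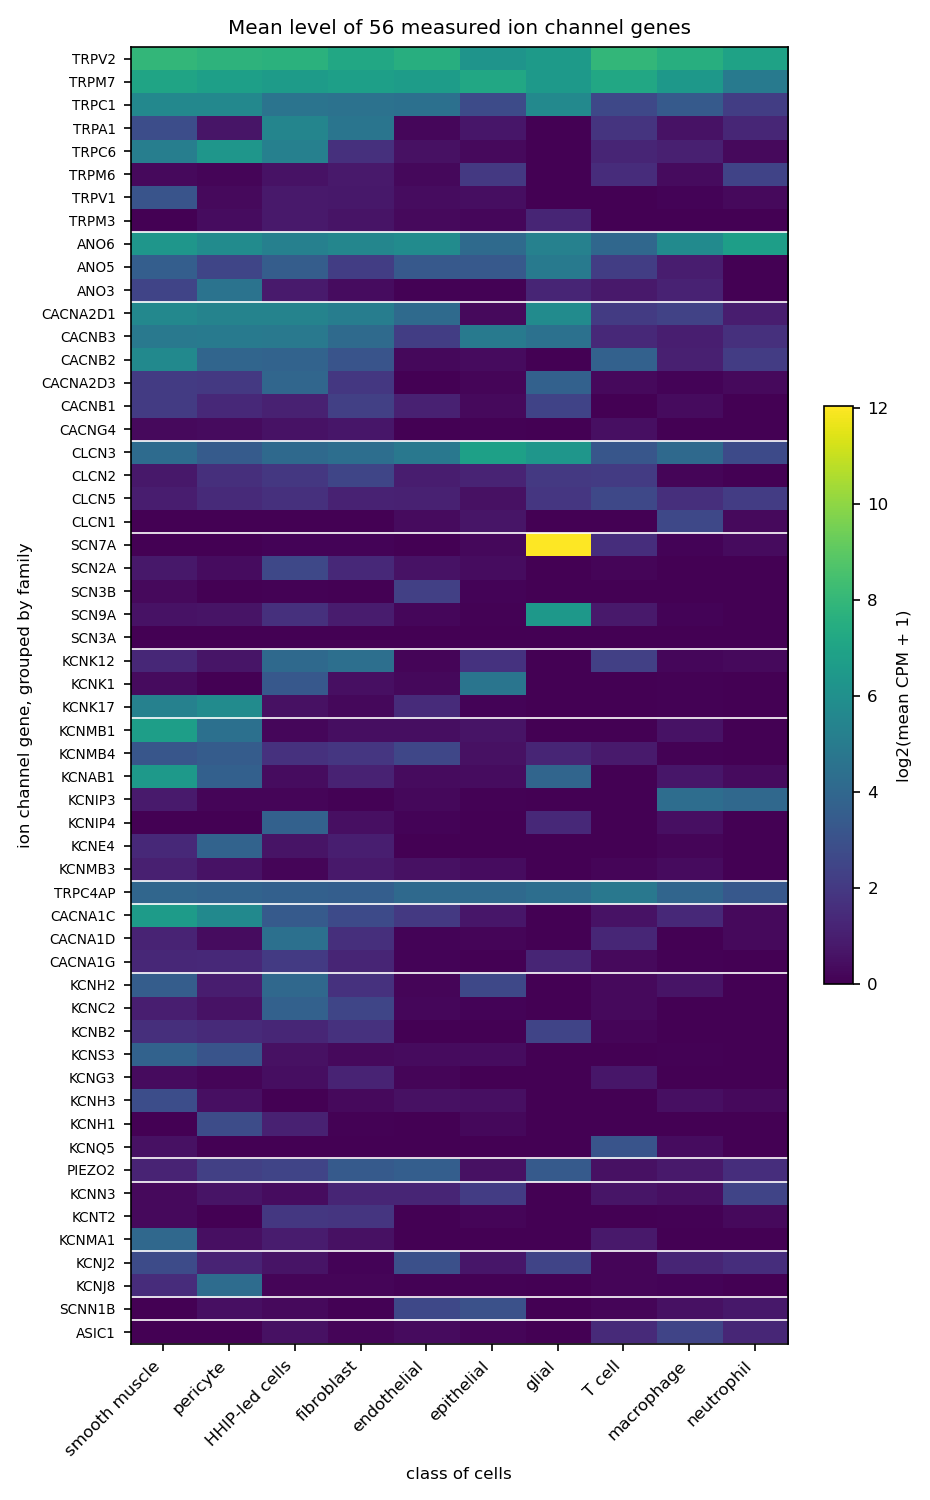
Mean level of 56 of the 57 measured ion channel genes (rows, grouped by family between white lines) in 10 classes of cells (columns), as log2(mean CPM + 1), with n = 4 libraries per class and 3 for glia. TRPV2 and TRPM7 are among the 3 highest rows of every column. SCN7A is bright in glia, and a block of potassium and calcium channel genes in smooth muscle and pericytes.

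TRPV2, a heat- and stretch-gated cation channel, and TRPM7 were among the 3 channel genes with the highest mean CPM in every one of the 10 classes. The third of these differed by class. It was SCN7A in glia, CLCN3 in epithelium, KCNMB1 in smooth muscle, TRPC6 in pericytes, TRPA1 in HHIP-led cells, TRPC4AP in T cells, and ANO6 in endothelium, fibroblasts, macrophages and neutrophils. TRPM7 had means from 83.7 CPM in macrophages to 147 CPM in epithelium, and 28.7 CPM in neutrophils. TRPC1, a cation channel of store and receptor signalling, had means of 47.5 to 49.8 CPM in pericytes, smooth muscle and glia, of 20.4 to 23.8 CPM in endothelium, fibroblasts and HHIP-led cells, and of 3.56 to 9.67 CPM in neutrophils, T cells, epithelium and macrophages. CACNA2D1, an alpha-2-delta subunit of calcium channels, ran from 0.246 CPM in epithelium to 48.2 CPM in smooth muscle and 54.2 CPM in glia.

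Smooth muscle held RNA of the L-type calcium channel and of the large-conductance calcium-activated potassium channel. Of the 761 cells of this class, 643 were in a cluster led by RERGL and SNCG, so class levels rest mainly on these cells. CACNA1C, the pore of the L-type calcium channel, was at 89.1 and 85.0 CPM in Injury_1 and Injury_2 and at 118 and 90.6 CPM in Normal_1 and Normal_2, a mean of 95.6 ± 14.9 CPM (SD, n = 4), against 51.2 ± 13.1 in pericytes and under 10 in every other class with a mean. CACNB2, a beta subunit of that channel, was at 50.8 ± 14.9 CPM, against 14.3 ± 2.97 in pericytes. KCNMB1, the smooth muscle beta subunit of the large-conductance calcium-activated potassium channel, was at 42.3 CPM in Injury_1 and 109.8 to 153 CPM in the other 3 libraries, all above the highest pericyte library at 36.7 CPM. KCNMA1, the pore of the same channel, had 65 UMIs in smooth muscle and reached 31.4 CPM in Injury_2. KCNAB1, a cytoplasmic beta subunit of Kv channels, was at 87.4 ± 28.5 CPM, next to 14.4 ± 5.69 in glia. TRPV1, the capsaicin receptor, was at 7.67 ± 4.16 CPM from 29 UMIs, and KCNH3, an ether-a-go-go potassium channel, at 6.19 ± 3.31 CPM from 24 UMIs.

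The smooth muscle class joined a cluster of 643 cells led by RERGL and SNCG with a cluster of 118 cells led by ACTG2, MYH11 and LMOD1, and the channel genes differed between them. KCNMA1 was at 55.7, 96.4 and 31.2 CPM in the ACTG2-led cells of Injury_1, Injury_2 and Normal_2, and at 1.26 to 10.9 CPM in the RERGL-led cells. Normal_1 had only 7 ACTG2-led cells and gives no value there. KCNH2, the hERG potassium channel, was at 41.7 ± 6.61 CPM (n = 3) against 4.01 ± 3.57 CPM (n = 4). TRPA1, the irritant-sensing channel, was at 27.7 ± 5.40 CPM in ACTG2-led cells and had 1 UMI among the RERGL-led cells. The reverse held for KCNAB1, with 342 UMIs in RERGL-led cells and none in ACTG2-led cells, and for KCNK17, a leak channel of the 2-pore family, with 148 and none. None of 819624 UMIs allows a level of up to 3.66 CPM. CACNA1C was at 99.7 to 119 CPM in the RERGL-led and at 33.4 to 39.8 CPM in the ACTG2-led cells. The libraries of these clusters did not overlap for any of these 6 genes, of which KCNH2 and KCNK17 were chosen after their values were seen. The share of all genes that separate these clusters was not counted. In the RefSeq assembly mOryCun1.1 KCNMB1 lies within KCNIP1 and CACNA1C overlaps DCP1B, so part of their UMIs is uncertain.

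**Figure D2:**
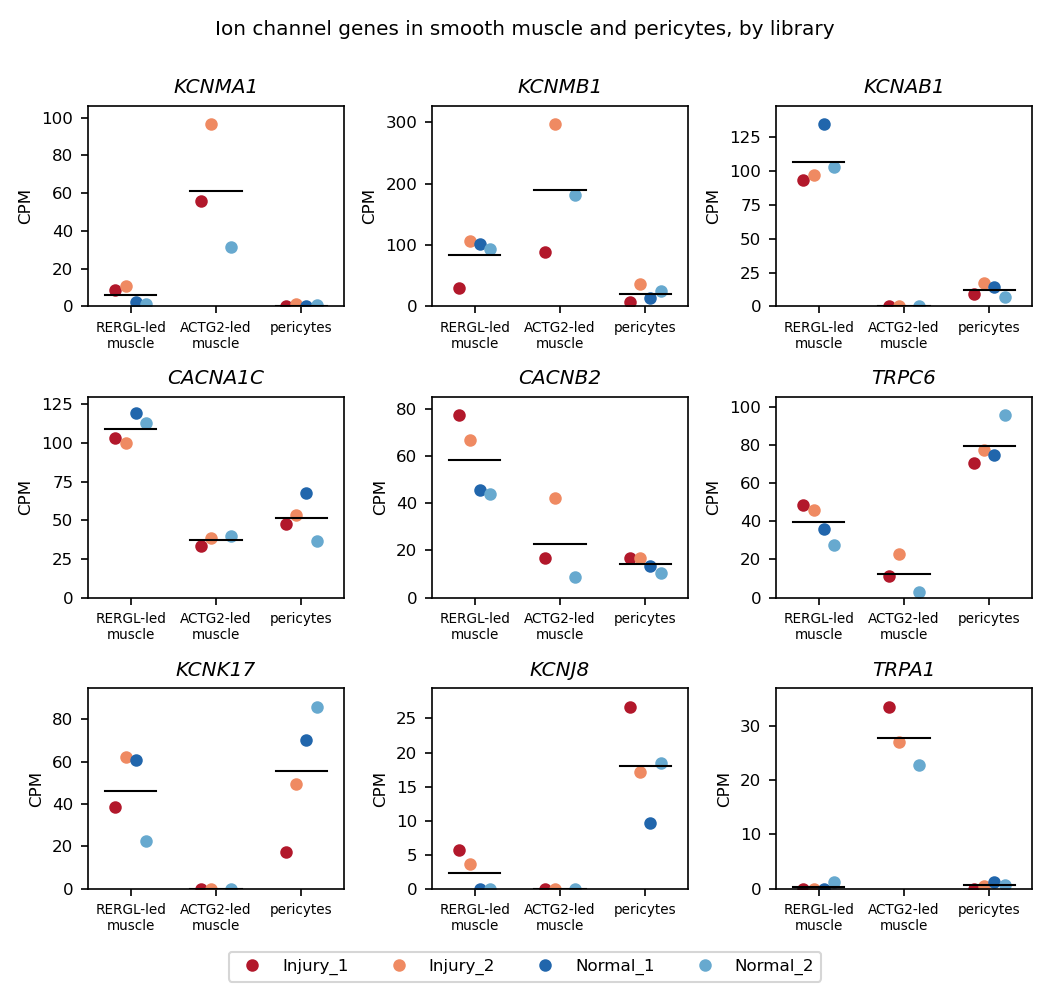
CPM of 9 ion channel genes in RERGL-led smooth muscle cells, ACTG2-led smooth muscle cells and pericytes. Each point is 1 library, coloured by library, and the black line is the mean (n = 4, 3 and 4). KCNMA1 and TRPA1 are highest in ACTG2-led cells, KCNAB1 and CACNA1C in RERGL-led cells, and TRPC6 and KCNJ8 in pericytes.

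Pericytes, the contractile cells on the wall of small vessels, held the pore of the vascular ATP-sensitive potassium channel. KCNJ8, that pore, was at 26.7 and 17.1 CPM in the injured (Injury_1, Injury_2) and 9.68 and 18.5 CPM in the normal libraries (Normal_1, Normal_2), and 83.2% of its UMIs came from pericytes. ABCC9, the sulfonylurea receptor that completes the channel and sits next to KCNJ8 in RefSeq's mOryCun1.1 assembly, was at 476 ± 79.6 CPM in pericytes and 69.8 ± 35.0 CPM in smooth muscle. TRPC6, a diacylglycerol-activated cation channel, was at 70.7 to 95.8 CPM in pericytes, above its range in HHIP-led cells, where it averaged 37.3 ± 18.9 CPM. ANO3 was at 23.2 ± 7.25 CPM, KCNE4, a modulator of Kv channels, at 13.0 ± 2.26 CPM and KCNH1 at 5.88 ± 1.96 CPM. For all 5 of these members the pericyte libraries lay above those of every other class with a mean. KCNK17 was at 17.3 to 85.9 CPM in pericytes and 15.7 to 58.8 CPM in smooth muscle, which overlap.

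Calcium stores and pumps outside the channel families were described from a fixed list of 49 partner genes, of which 33 were in the files. RYR2, a calcium release channel of the sarcoplasmic reticulum, was at 115 ± 21.3 CPM in smooth muscle and 13.1 CPM in pericytes. SLC8A1, the sodium-calcium exchanger, was at 245 ± 31.1 CPM in smooth muscle, and PLN, the inhibitor of the store's calcium pump, at 44.3 ± 11.1 CPM. RYR2, SLC8A1 and PLN were highest in the same class as CACNA1C and KCNMB1. They were picked from the 33 partner genes, and how many of the others were highest there is not given. In epithelium ST14, a protease that activates epithelial sodium channels, was at 196 ± 115 CPM, against means of at most 5.07 CPM in the other classes with a mean.

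Glia were the smallest class with a mean, with 127 cells, and were led by S100B, GFRA3 and CDH19. SCN7A, the sodium-sensing channel of glia, was at 3125 CPM in Injury_1, 3400 in Injury_2 and 5971 in Normal_1, and Normal_2 had 119 UMIs in 7 cells. Of its 2082 UMIs, 95.1% were in this class, and T cells came next with a mean of 1.95 CPM. SCN9A, the sodium channel of pain-sensing neurons and the neighbour of SCN7A in the RefSeq assembly, was at 40.8 to 157 CPM from 33 UMIs. Only 20.5% of its UMIs were glial, since fibroblasts and HHIP-led cells held 45 and 55 UMIs at 0.898 and 2.23 CPM. The glial libraries also held markers of other classes, given here for Injury_1, Injury_2 and Normal_1. The 5 fibroblast markers in the files summed to 16397, 15585 and 2570 CPM, against 5013, 5911 and 4466 CPM for the 5 glial markers. The 9 epithelial markers (4 at 0) summed to 101, 57.1 and 266 CPM, the 6 smooth muscle markers (1 at 0) to 145, 163 and 125 CPM, and the 8 endothelial markers (2 at 0) to 33.8, 20.4 and 47.0 CPM. Their part in the glial values was not tested. With at most 10% mitochondrial UMIs only 30, 36, 17 and 3 glial cells remained in Injury_1, Injury_2, Normal_1 and Normal_2, too few libraries with 20 cells for a glial mean.

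Lymphatic endothelial cells were marked by SCN3A, a voltage-gated sodium channel best known from the developing brain. Of its 113 UMIs, 110 (97.3%) fell in 89 cells led by CCL21, MMRN1, PROX1 and LYVE1, a pooled level of 224 CPM (95% exact Poisson interval 184 to 270.3, for counting error only). With 28, 52 and 9 of these cells in Injury_1, Injury_2 and Normal_2 and none in Normal_1, no mean over libraries is given. PIEZO2, the channel that senses touch, had 35 UMIs there, 71.4 CPM (49.7 to 99.2), and SCN3B, a sodium channel beta subunit, 15 UMIs, 30.6 CPM (17.1 to 50.4). The 5 glial markers in the files were at 0 in these cells.

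Blood endothelium divided its channels by cluster. PIEZO2 was at 28.7, 26.9, 33.3 and 8.92 CPM in the cluster led by ESM1 and KDR (Injury_1, Injury_2, Normal_1 and Normal_2), and means lay between 3.52 and 4.57 CPM in the other 3 endothelial clusters. KCNJ2, an inward rectifier, was highest in the cluster led by ATP2A3, BMX and NOS3, at 9.06 to 20.2 CPM. KCNN3, a small-conductance calcium-activated potassium channel, was at 2.44 to 10.8 CPM in that cluster and at means under 1 CPM in the other 3. SCNN1B, a subunit of the epithelial sodium channel, was at 5.14 ± 3.90 CPM in blood endothelium (198 UMIs) and at 6.79 ± 4.55 CPM in epithelium (146 UMIs), and these ranges overlap. It reached 19.6 and 23.3 CPM in Normal_2 in the clusters led by SELP and by ENPP3 but had no UMI in either cluster in Injury_2. SCN3B was at 3.84 ± 2.29 CPM in blood endothelium, against at most 0.871 CPM in any library of smooth muscle, the next class with a mean. In lymphatic endothelium, which has no mean, the pooled levels were 30.6 CPM for SCN3B, 71.4 CPM for PIEZO2 and 14.3 CPM for SCNN1B (7 UMIs).

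**Figure D3:**
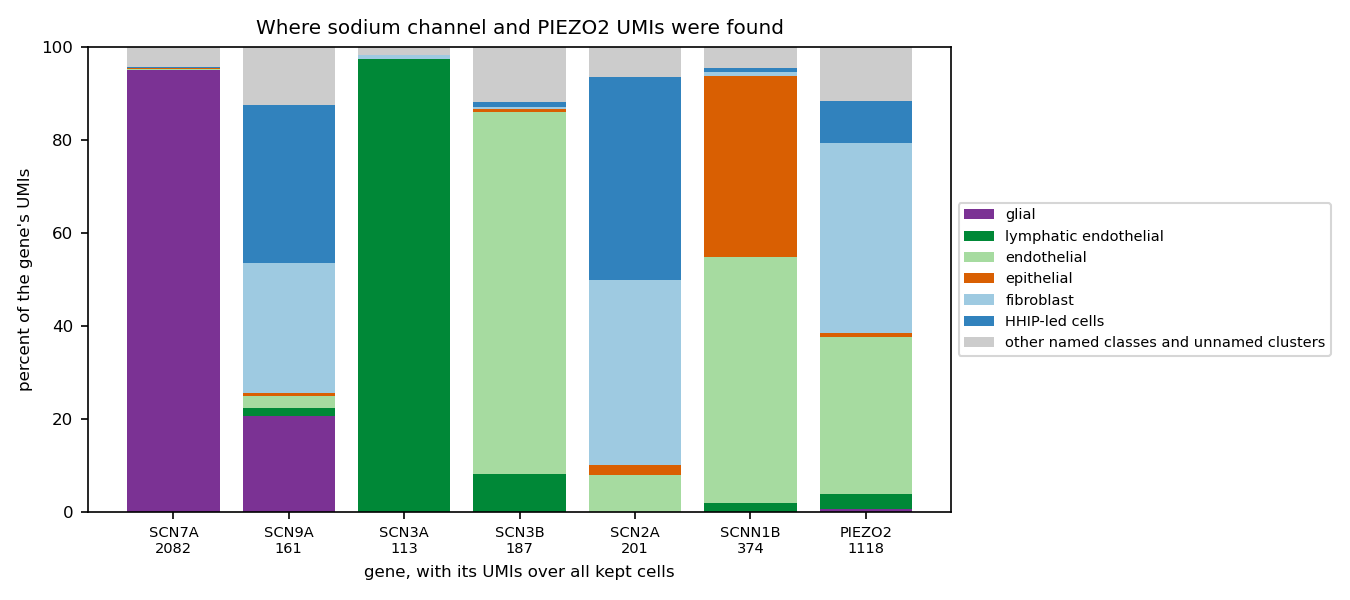
Percent of the UMIs of 7 genes (6 sodium channel genes and PIEZO2) that came from each class of cells, with the number of UMIs of each gene over all kept cells under its symbol. SCN7A stands in glia (95.1%) and SCN3A in lymphatic endothelium (97.3%), while the UMIs of SCN9A, SCN2A and PIEZO2 were spread over several classes.

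Fibroblasts and HHIP-led cells both held TRPA1 and CACNA2D3 at levels that overlap, while CACNA1D, KCNIP4 and KCNC2 lay in HHIP-led cells above the fibroblast range. CACNA1D, a second L-type calcium pore, was at 8.98 and 11.95 CPM in HHIP-led cells of Injury_1 and Injury_2 and at 47.7 and 13.6 CPM in those of Normal_1 and Normal_2, against at most 4.04 CPM in any fibroblast library. KCNIP4, which binds Kv4 channels, was at 6.22 to 20.7 CPM, and 82.0% of its UMIs were in these cells. KCNC2, a fast Kv channel, was at 6.22 to 21.7 CPM in HHIP-led cells and at 3.10 to 5.84 CPM in fibroblasts. Among fibroblasts, KCNC2 stood in the cluster led by EDIL3 and TCF21, at 18.2 ± 4.28 CPM, with means of 0.293 to 1.52 CPM in the other 3 fibroblast clusters. TRPA1 was at 20.8 to 72.9 CPM and CACNA2D3, an alpha-2-delta subunit, at 2.33 to 29.6 CPM in the same cluster. KCNK12, a 2-pore channel that is silent on its own, was even over all fibroblast clusters, with means of 16.0 to 23.2 CPM, and over libraries, at 19.8 ± 1.59 CPM.

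The urothelium carried CLCN3, an endosomal exchanger of chloride and protons, at the highest level of any class. It was at 197 and 133 CPM in Injury_1 and Injury_2 and at 77.4 and 44.7 CPM in Normal_1 and Normal_2, and this range overlaps that of glia, at 62.7 to 110.1 CPM. KCNK1, a weakly rectifying leak channel, was at 9.97 to 53.5 CPM, and SCNN1B at 2.31 to 11.7 CPM. TRPM7, a channel joined to a kinase, was at 81.0 to 109.8 CPM in 3 libraries and at 305 CPM in Normal_1. TRPV2 was at 73.7 ± 11.9 CPM in epithelium, the lowest mean of the 10 classes.

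Urothelial cells with KRT5, a keratin of the basal layer, were compared within rabbits with cells that had a uroplakin, a membrane protein of the upper layers that intermediate as well as superficial cells can carry. Epithelial-like cells with a KRT5 UMI and no uroplakin UMI (46, 65, 145 and 58 cells in Injury_1, Injury_2, Normal_1 and Normal_2) were set against those with a UPK1B or UPK3B UMI and no KRT5 UMI (392, 143, 119 and 25 cells). The groups rest on detection: a KRT5 UMI was found in 29.2% and a uroplakin UMI in 53.0% of epithelial-like cells (median 13733 UMIs), against 0.235% and 1.01% of fibroblasts (median 7244 UMIs), which should lack both, and a cell without a UMI may still express the gene. Of 8 channel genes tested 1 passed the threshold, against 18.4% of all genes in the same test (923 of 5009), a share near the background that is no result about the members. CLCN3 was at 231, 158, 119 and 104 CPM in uroplakin-detected and at 76.1, 89.4, 46.6 and 32.0 CPM in KRT5-detected cells, and it was higher in uroplakin-detected cells in all 4 rabbits. The log2 difference was 1.18 ± 0.18 (SE), with an adjusted p of 0.00309 by edgeR's quasi-likelihood test with the rabbit as a block and Benjamini-Hochberg adjustment. Without the block the adjusted p was 0.0762, at a log2 difference of 1.21. With at least 2 UMIs required of the marker, which leaves 7 uroplakin-detected cells in Normal_2 and so drops that rabbit, CLCN3 passed with a log2 difference of 1.28 (adjusted p = 0.0405, edgeR), and 4.69% of 4948 genes were called.

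The other 7 members tested in this comparison missed the threshold. At an unadjusted p under 0.05 stood 7 of the 8 tested, CLCN3 included, as did 33.9% of all genes (1696 of 5009), and no test of the members' share was made. DESeq2 called 1 member and 6.26% of 11574 genes. TRPV2 was at 64.6, 76.8, 84.0 and 91.1 CPM in KRT5-detected and at 62.9, 57.9, 61.4 and 48.2 CPM in uroplakin-detected cells, a log2 difference of -0.57 ± 0.18 (adjusted p = 0.0557, edgeR). KCNK1 had a log2 difference of -0.90 ± 0.35 (adjusted p = 0.104) and ANO6, a calcium-activated phospholipid scramblase, one of -0.94 ± 0.38 (adjusted p = 0.113). SCNN1B had 13 UMIs in KRT5-detected and 97 in uroplakin-detected cells, with 1.15, 1.69, 1.01 and 6.56 against 15.4, 0.958, 9.65 and 19.3 CPM, so it was higher in uroplakin-detected cells in 3 of 4 rabbits. It was too low to enter the test. Leaving out Injury_2, 5 members passed (CLCN3, ANO6, CACNB3, KCNK1 and SCNN1B), as did 19.5% of 5017 genes.

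Among the partner genes, 6 of 15 tested passed in the same comparison, as did 18.4% of all genes (923 of 5009). No test of the partners' share was made. PKD2, a cation channel of the polycystin family, was higher in uroplakin-detected cells by 1.67 ± 0.35 and ATP2B1, a calcium pump of the plasma membrane, by 0.64 ± 0.15 on the log2 scale. ATP1B3, a sodium pump subunit, was lower there by a log2 difference of -1.13, as were LRRC8C, of the volume-regulated anion channel, at -3.29 and NEDD4L, a ubiquitin ligase of epithelial sodium channels, at -0.52. KRT5-detected cells had medians of 14175 to 22635 UMIs per cell and uroplakin-detected cells 10986.5 to 18538, and the part of depth in these differences was not tested.

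**Figure D4:**
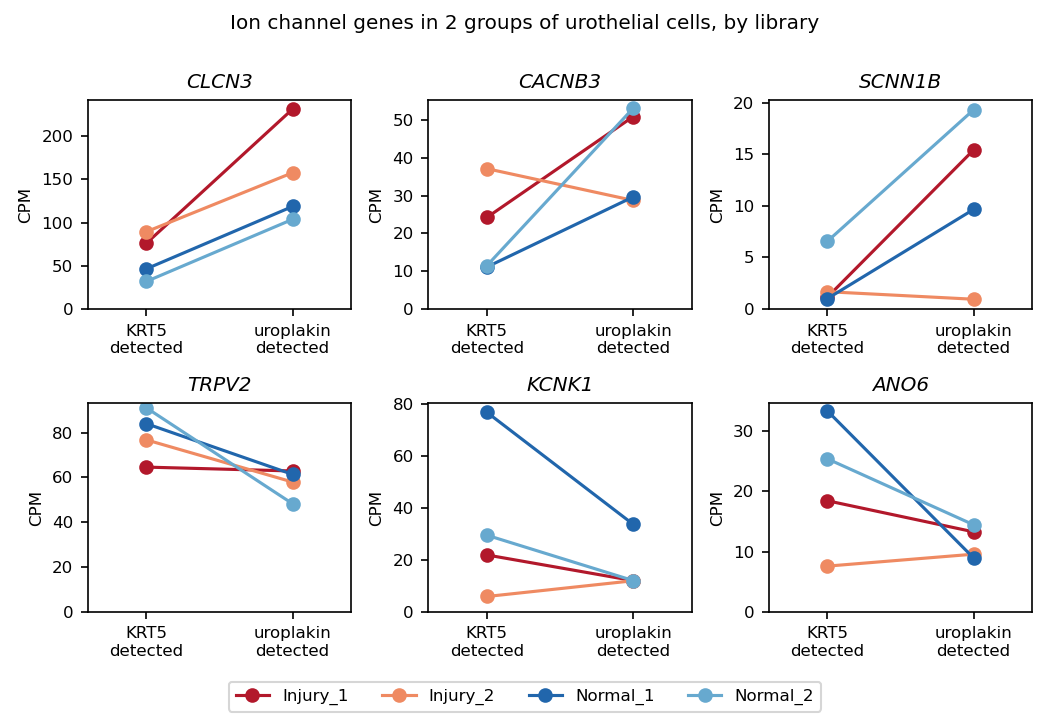
CPM of 6 ion channel genes in KRT5-detected and uroplakin-detected urothelial cells. Each line joins the values of 1 library. CLCN3 is higher in uroplakin-detected cells in all 4 libraries and is the only gene of the 6 to pass the threshold, while CACNB3, SCNN1B, KCNK1 and ANO6 go the other way in Injury_2.

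T cells were the highest class of 4 of the 57 measured genes, and macrophages and neutrophils of 3 each. Of all 9965 genes with at least 50 UMIs, 1076, 611 and 524 were highest in these classes, and the shares were not tested. KCNQ5, of the slow M-current potassium channels, was even across T cells, at 8.29, 7.11, 7.74 and 8.03 CPM in Injury_1, Injury_2, Normal_1 and Normal_2 from 36 UMIs. It was at most 1.85 CPM in any library of smooth muscle, the next class with a mean. KCNIP3, a calcium-binding partner of Kv channels and a repressor of transcription, was at 23.5 to 61.4 CPM in the macrophage-class cluster led by HLA-DRA, DNASE1L3 and CD74, and at 0 to 4.87 CPM in the cluster led by C1QA, C1QB and CSF1R. The same HLA-DRA-led cluster held 36 of the 37 macrophage UMIs of CLCN1, a chloride channel best known from skeletal muscle, and 37 of the 38 of ASIC1, an acid-sensing channel. ANO6 was highest in neutrophils, at 86.5 to 129 CPM, just above its highest smooth muscle library at 86.0 CPM. TRPV2 was at 252 ± 52.0 CPM in T cells and 251 ± 36.4 CPM in smooth muscle, and its ranges overlapped. B cells (220) and mast cells (106) reached 20 cells in only 2 libraries each. TRPV2 (209 and 65 UMIs) and TRPM7 (132 and 44 UMIs) led their channel genes.

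Injured and normal bladders were compared class by class, to ask which channel genes differed at the stage of wound closure. No channel gene passed the threshold in any of the 9 classes with at least 20 cells in every library. Epithelium had 15 members tested and 0 called (1.66% of all 7046 genes called), fibroblasts 37 and 0 (0.144%), pericytes 20 and 0 (0.0348%) and T cells 5 and 0 (0.0461%). Endothelium had 18 tested, HHIP-led cells 21, smooth muscle 18, macrophages 8 and neutrophils 4, all with 0 called, and there 0% of all genes were called. At an unadjusted p under 0.05 by edgeR stood 4 of 15 members in epithelium (20.4% of all genes tested), 7 of 37 in fibroblasts (10.9%), 4 of 21 in HHIP-led cells (7.84%), 2 of 20 in pericytes (9.75%), 2 of 18 in smooth muscle (4.95%), 1 of 18 in endothelium (6.56%), 1 of 5 in T cells (13.2%), 1 of 4 in neutrophils (5.71%) and 0 of 8 in macrophages (14.3%). DESeq2, run on all genes with a UMI, called 3 members in epithelium (4.01% of all genes) and 2 in HHIP-led cells (0.655%). It called no member in fibroblasts (1.76%), pericytes (0.746%), macrophages (0.624%), T cells (0.550%), endothelium (0.407%), smooth muscle (0.0666%) and neutrophils (0.0229%). The median log2 difference of the members lay between -0.37 in neutrophils and 0.06 in pericytes. Sums over a class cannot tell fewer cells of a kind within a class from less RNA per cell.

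TRPA1 and CACNA2D3 in HHIP-led cells had the lowest unadjusted p-values of any channel gene in these 9 comparisons, 0.000399 and 0.000556 by edgeR. TRPA1 was at 115.9 and 47.0 CPM in the injured and 5.53 and 5.54 CPM in the normal libraries, a log2 difference of 3.80 ± 0.53 (SE, adjusted p = 0.113, edgeR). CACNA2D3 was at 21.7 and 33.8 CPM in the injured and 0.691 and 2.49 CPM in the normal libraries, a log2 difference of 3.74 ± 0.56 (adjusted p = 0.145, edgeR). For both genes the groups did not overlap, but the share of all genes that separate so was not counted. With 2 libraries per group the smallest exact permutation p is 0.333. TRPA1 passed the threshold on leaving out Injury_2 (adjusted p = 0.0391), Normal_1 (0.000443) or Normal_2 (0.0218), and CACNA2D3 on leaving out Injury_1 (0.0307), Normal_1 (0.000749) or Normal_2 (0.0128). DESeq2 gave adjusted p-values of 8.8e-08 for TRPA1 and 0.00021 for CACNA2D3. KCNH2 also passed on leaving out Normal_1 (0.00689), and CACNA1D (0.0148) and TRPM7 (0.0247), both lower in the injured libraries, on leaving out Normal_2. Of all genes in HHIP-led cells, 0.192% were called without Injury_1, 0.218% without Injury_2, 5.75% without Normal_1 and 7.76% without Normal_2. The 5 fibroblast markers in the files summed to 41177 and 42976 CPM in the injured and 11405 and 34904 CPM in the normal HHIP-led cells, and the 6 smooth muscle markers to 2687 and 3667 against 1191 and 3865 CPM. The EDIL3-led fibroblasts held TRPA1 at 72.9 and 56.7 CPM in the injured and 53.6 and 20.8 CPM in the normal libraries. The part of such cells in the difference was not tested.

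In epithelium CLCN3 and KCNK1 lay on opposite sides. CLCN3 had a log2 difference of 1.20 ± 0.29 (adjusted p = 0.0971, edgeR) and KCNK1 one of -2.01 ± 0.39 (adjusted p = 0.073, edgeR). For neither did the injured and normal libraries overlap, but the share of all epithelial genes that separate so was not counted. Within each urothelial group CLCN3 was also higher in both injured rabbits than in both normal ones. KCNK1 in uroplakin-detected cells was at 33.8 CPM in Normal_1, but at 11.97 to 12.06 CPM in Normal_2 and the injured libraries. Uroplakin-detected cells were 392 of 566 and 143 of 354 epithelial-like cells in the injured and 119 of 441 and 25 of 172 in the normal libraries. TRPM7 had a log2 difference of -1.44 ± 0.41 (adjusted p = 0.134, edgeR), with 305 CPM in Normal_1 and 81.0 to 109.8 CPM in the other 3 libraries. Leaving out Normal_1, CLCN3 (adjusted p = 0.0479) and KCNK1 (0.0497) passed and TRPM7 did not. Leaving out Normal_2, KCNK1 (0.0162) and TRPM7 (0.018) passed. Of all epithelial genes, 5.57% were called without Normal_1 and 6.31% without Normal_2.

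In mural, endothelial and immune classes the channel genes with the lowest unadjusted p-values were few, and some rested on few UMIs. KCNMA1 in smooth muscle was at 18.3 and 31.4 CPM in the injured and 3.39 and 10.5 CPM in the normal libraries, a log2 difference of 1.75 ± 0.62 (adjusted p = 0.937, edgeR). The ACTG2-led cells, where KCNMA1 stood highest, were 25 of 152 and 31 of 174 smooth muscle cells in the injured and 7 of 221 and 55 of 214 in the normal libraries. KCNK17 in pericytes was at 17.3 and 49.3 CPM against 70.2 and 85.9 CPM, a log2 difference of -1.22 ± 0.47 (adjusted p = 0.452, edgeR), and it passed on leaving out Injury_2 (0.0188) or Normal_1 (2.1e-05), and TRPV2 passed too without Normal_1 (0.0254). Of all pericyte genes, 2.12% were called without Injury_2 and 8.86% without Normal_1. CACNB2 in T cells had 54 and 26 UMIs in the injured and 2 and 0 UMIs in the normal libraries, at 23.6 and 20.5 against 5.16 and 0 CPM (log2 difference 3.36 ± 0.84, adjusted p = 0.166, edgeR), and it passed on leaving out Normal_1 (0.000235), as did 10.6% of all T cell genes. KCNIP3 in neutrophils had 3 and 6 UMIs in the injured and 4 and 4 UMIs in the normal libraries (log2 difference -2.46 ± 0.80, adjusted p = 0.815, edgeR). ANO5 in endothelium was at 16.8 and 11.1 against 5.40 and 4.37 CPM (log2 difference 1.45 ± 0.33, adjusted p = 0.583, edgeR).

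**Figure D5:**
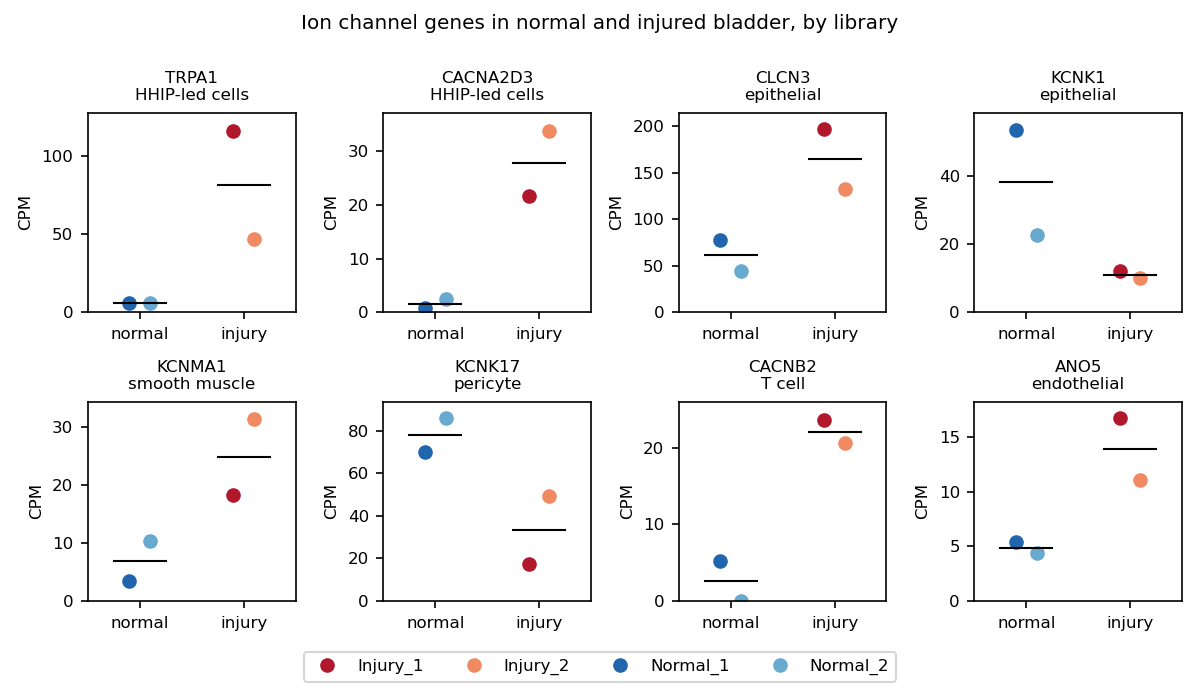
CPM of 8 ion channel genes, each in 1 class of cells, in 2 normal and 2 injured libraries. Points are libraries and black lines are means (n = 2). None of the 8 differences passed the adjusted threshold. The groups do not overlap in any panel, but the share of all genes that separate so was not counted. With 2 libraries per group the smallest exact permutation p is 0.333.

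Fibroblasts held 2 genes with almost all their fibroblast UMIs in normal rabbits, most of them in Normal_2. KCNIP4 had 0 UMIs in both injured libraries and 4 and 13 UMIs in Normal_1 and Normal_2 (adjusted p = 0.172, edgeR). SCN9A had 0 and 2 UMIs in the injured and 4 and 39 in the normal libraries (adjusted p = 0.184, edgeR), and it passed on leaving out Injury_2 (0.0216), as did 2.36% of all fibroblast genes. CACNA2D3 was at 2.13 and 6.75 CPM in the injured and 1.62 and 0.753 CPM in the normal fibroblasts (log2 difference 2.13 ± 0.70, adjusted p = 0.35, edgeR), and passed on leaving out Injury_1 (0.0155), as did 1.72% of all fibroblast genes. Glial markers summed to 1 to 5 CPM in the fibroblast class in every library. HHIP-led cells, which also held KCNIP4 and SCN9A, were 19.9% of the kept cells in Normal_2 and 6.06% in Normal_1. They were 2.83% in Injury_1 and 5.48% in Injury_2. The part of such cells in the fibroblast values was not tested.

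Whether injury moved a channel gene differently in fibroblasts and endothelium was tested as an interaction within rabbits. None of 37 members tested passed (0.161% of all 8696 genes), with 2 at an unadjusted p under 0.05 by edgeR (10.4% of all genes) and 0 called by DESeq2 (0.395% of 13914 genes). ANO5 had the largest of these, a log2 difference between the effects of -2.05 ± 0.51 (adjusted p = 0.171, edgeR). It passed on leaving out Injury_2 (0.0337) or Normal_1 (0.0293), and without Normal_1 SCN9A (0.00564) and KCNMB4 (0.0456) passed too. Of all genes in the interaction, 1.13% were called without Injury_2 and 5.76% without Normal_1. Among 27 partner genes NEDD4L passed, with an effect higher in fibroblasts by 2.30 on the log2 scale (adjusted p = 0.038, edgeR). NEDD4L was at 40.7 and 28.0 CPM in injured and 15.2 and 8.77 CPM in normal fibroblasts, and at 11.6 and 11.97 against 23.1 and 13.4 CPM in endothelium. No partner gene passed between injured and normal rabbits within a single class.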

How the data were processed

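Bladder mucosa of 4 rabbits was profiled by droplet-based single-cell RNA sequencing. The deposited tables hold raw UMI counts per gene and cell barcode, which the authors made with Cell Ranger 6.0.1 from a separate library of each rabbit. The genome build was not given in the sources used here. Barcodes under 500 UMIs or 200 genes, or over 15% of UMIs in 13 mitochondrial genes, were dropped, which left between 24798544 and 44542420 UMIs per library. Seurat 5.3.0 (R 4.3.3) served for normalization, canonical correlation integration and clustering (2000 variable genes without channel genes, 30 components, resolution 0.8). Clusters were named from fixed markers with at least 3 raised 2-fold. Doublets were scored with Scrublet in scanpy 1.11.5 and removed only as an alternative.

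UMIs were summed per rabbit and class. After TMM normalization and filterByExpr, all genes entered a quasi-likelihood test in edgeR 4.0.16, with Benjamini-Hochberg adjustment and a threshold of 0.05. Classes needed at least 20 cells in every library, and urothelial groups at least 10. The layer and interaction tests had the rabbit as a block. DESeq2 1.42.0, another normalization, no filter, left-out libraries, doublet and mitochondrial limits and other clusterings were alternatives. Each test was tried on simulated data first. The labels give replicate numbers only as part of the names of rabbits, and p-values measure the spread between single rabbits. Poisson intervals and the limit of 3 UMIs cover counting error only.

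The channel genes, partner genes and markers were chosen with earlier results of these data known. Named genes were a list of channels with a known role in bladder, muscle, epithelium, nerve or immune cells, the 3 highest of each class and every gene past a threshold. KCNK1, KCNK12, KCNK17, KCNH2, KCNH3, KCNC2, KCNIP3, CLCN1 and ANO3 were chosen after their values were seen. A few genes are not reported here.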

Additional observations from a re-analysis of the deposited data

Results flagged for a closer look

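Of 16 sets of 4 libraries examined, 8 channel genes in each of the urothelial groups, 2 held a library far from the other 3, where chance alone flags about 1 group in 20. KCNK1 in uroplakin-detected urothelial cells was at 33.8 CPM in Normal_1 and at 11.97 to 12.06 CPM in the other 3 libraries. TRPM7 in KRT5-detected urothelial cells was at 408 CPM in Normal_1 and at 91.9 to 118 CPM in the other 3 libraries. Normal_1 is the shallowest library, and the part of depth in both values was not tested.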

How the results depend on the processing

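Under DESeq2, 3 channel genes passed between injured and normal epithelium (CLCN3, TRPM7, KCNK1) and 2 in HHIP-led cells (TRPA1, CACNA2D3), where edgeR called none, beside 4.01% and 0.655% of all genes. Without the filter on low counts, 3 passed in epithelium (8.01% of all genes), 3 in fibroblasts (4.05%), 3 in HHIP-led cells (1.94%), 1 in pericytes (2.73%), 1 in T cells (2.90%), 5 between the urothelial groups (10.9%) and 2 in the interaction (2.46%). With the top 5% of doublet scores removed per library, 1 passed in epithelium (KCNK1; 2.59% of all genes). With the replicate number as a block, 2 passed in fibroblasts (KCNIP4, SCN9A; 4.66% of all genes) and 2 in HHIP-led cells (TRPA1, CACNA2D3; 0.503%), and no other class gained a call. Same-numbered libraries deviated together with correlations of -0.098 to 0.176 by class. Each rests on 1 difference between libraries per condition, so they cannot decide whether the numbers pair the rabbits. Without the rabbit as a block, 0 passed between the urothelial groups, where CLCN3 kept a log2 difference of 1.21. Leaving out 1 library at a time gave 0 to 2 calls in epithelium, 0 to 1 in fibroblasts, 1 to 4 in HHIP-led cells, 0 to 2 in pericytes, 0 to 1 in T cells, 1 to 5 between the urothelial groups and 0 to 3 in the interaction, and 0 in endothelium, macrophages, neutrophils and smooth muscle. The cause of these changes was not tested.

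Over all genes, the number called across the alternatives ran from 25 to 966 in epithelium (117 in the reported test), 0 to 535 in fibroblasts (12), 0 to 466 in HHIP-led cells (0), 0 to 701 in pericytes (2), 0 to 571 in T cells (2), 0 to 73 in endothelium (0), 0 to 430 in macrophages (0), 0 to 76 in neutrophils (0), 0 to 247 in smooth muscle (0), 57 to 1265 between the urothelial groups (923) and 14 to 525 in the interaction (14). Of 57 measured genes, 57 kept their highest class without high doublet scores, 40 with at most 10% mitochondrial UMIs (all 9 genes highest in glia lost that class, since only 2 libraries then had 20 glial cells), 43 at a clustering resolution of 0.3 and 51 with channel genes used for clustering. The resolution of 0.3 could not be run for HHIP-led cells and neutrophils, nor clustering with channel genes for neutrophils, for want of such a class with 20 cells in every library.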
